A study of Zea mays with 4 samples.

Results

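The genes described here are those of cytokinin signalling, synthesis and breakdown in the maize root tip. They were taken as every protein-coding GeneID in the 4 libraries whose NCBI symbol or synonym consists of rr, hp, hk, ipt, cko or ckx with an optional number and letter, whether or not any read was found. This gave 30 of 34018 protein-coding genes, and of 48174 genes in all. One of the 30 is no cytokinin gene by its names. HPL (GeneID 542163, with the synonyms hpl1 and P450) matched through its letters and is the name of a hydroperoxide lyase, a cytochrome P450 enzyme of fatty acid breakdown. It is counted apart, which leaves 29 cytokinin genes. They comprised 3 receptor genes, 3 phosphotransfer genes, 9 response regulator genes, 4 synthesis genes and 10 breakdown genes.

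All samples were of 1 group. Root tips of the inbred line B73 (the terminal 1 mm) were cut from untreated seedlings aged 3 days, grown at 28 C in constant dim light, and 4 biological replicates were sequenced after removal of ribosomal RNA. Primary and seminal roots were pooled in every sample, so the root types cannot be told apart, and how many seedlings went into a sample was not stated in the labels used here. There was no second genotype, treatment or stage, so the data carry levels and their spread between libraries, and no response to a hormone.

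Cytokinins are hormones derived from adenine. Isopentenyl transferases (IPT) make them and cytokinin oxidases (CKX, also named cko) cleave their side chain, which inactivates them. The hormone is bound by membrane histidine kinases (HK), which pass a phosphate group to small mobile phosphotransfer proteins (HP) and through them to response regulators (RR) in the nucleus. Type-B regulators bind DNA and switch on target genes. Type-A regulators, themselves early targets in many plants, lack that domain and dampen the pathway. In the root of Arabidopsis, cytokinin acts at the border of the meristem and favours the exit of cells from division into differentiation.

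Library totals ran from 9168900 to 14728797 counts, and a level is given as counts scaled to a library total of 1e6 (CPM), with the SD over 4 libraries. At these totals 3 counts, the limit that a count of 0 allows, correspond to 0.204 to 0.327 CPM in a single library and to 0.0584 CPM over the 4 together. Markers of the tip were present in all libraries: the root cap genes RCP1 and RCP2 summed to between 316 and 423 CPM and the dividing-cell genes PCNA, pcna2 and cyc1 to between 479 and 555 CPM. Markers of other root cells were present too. The root hair gene rth3 stood between 61.9 and 69.4 CPM, and SCR of the ground tissue between 12.2 and 17.0 CPM. The phloem genes sut1 and sut2 summed to between 53.8 and 63.1 CPM. Of 7 seed genes, 1 had a count, a single one, and of 7 leaf genes 4 had counts. The leaf sum of 43.8 to 89.3 CPM was almost all Ppdk1, and the Rubisco gene ssu1 had no count.

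Most of the signalling genes matched by the rule were expressed in the root tip, whereas many of the matched breakdown genes were not. Of the 29 cytokinin genes 20 passed edgeR's expression filter (at its defaults, a minimum count of 10), beside 57.6% of all protein-coding genes. All 3 receptor genes, all 3 phosphotransfer genes and 8 of 9 response regulator genes passed, against 2 of 4 synthesis genes and 4 of 10 breakdown genes. A single count sufficed to list 28 of the 29, beside 77.3% of protein-coding genes, and the one gene with none was IPT4. In whole tips, a low level from few expressing cells and from little RNA in each cell cannot be told apart.

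Each expressed gene was set against the median expressed protein-coding gene of the same library, which stood at 14.7, 13.9, 14.5 and 15.5 CPM in replicates 1 to 4. A quasi-likelihood F test in edgeR asked whether the ratio exceeded 2-fold, up or down, with Benjamini-Hochberg adjustment over all 21046 genes tested. A call here means an adjusted p of at most 0.05. Transcript lengths were not available here, so these ratios and every order of genes given here are of reads and not of molecules. By this test 2 of the 20 cytokinin genes lay above the median gene, beside 25.6% of all genes tested, and 5 of 20 lay below it, beside 27.0%. The other 13 did neither, and the median log2 ratio of the 20 was -0.21, beside -0.07 for all genes tested. HPL also lay above, at 40.2 ± 4.15 CPM (log2 ratio 1.46 ± 0.09 SE, edgeR adjusted p = 0.000174).

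**Figure D1:**
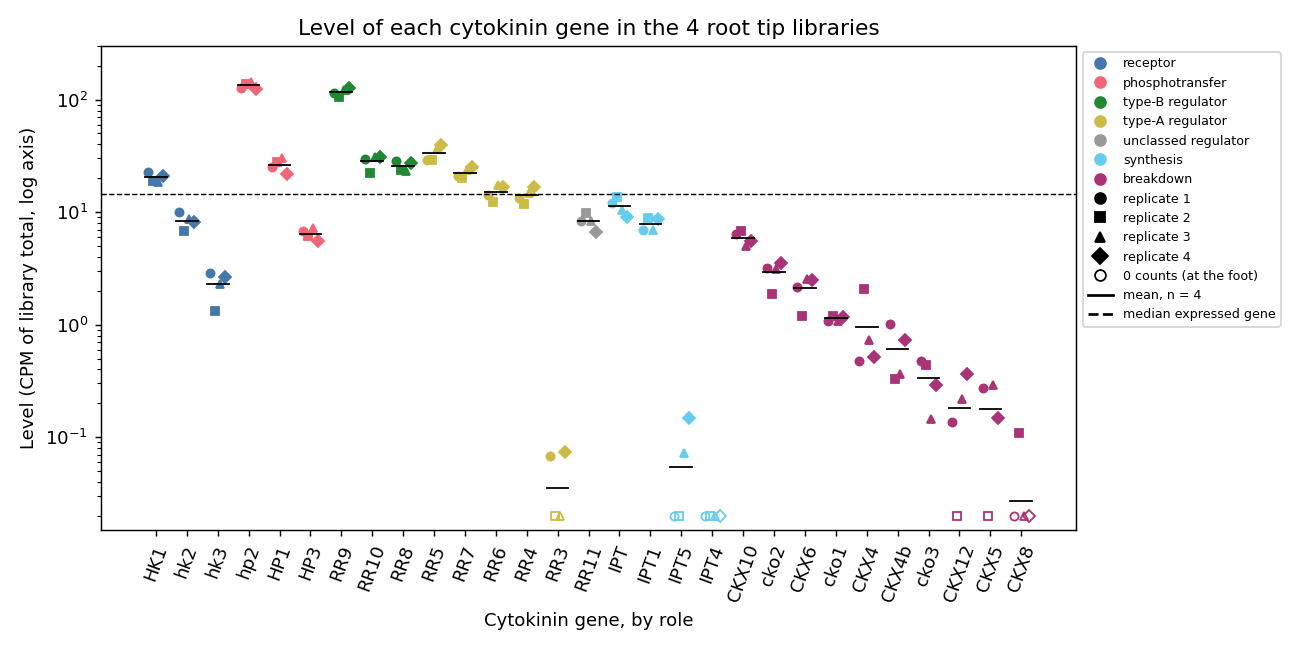
Level of each of the 29 cytokinin genes (vertical axis, CPM, log scale) in each of the 4 libraries, with genes grouped by role along the horizontal axis. Marker shapes are replicates, short lines are means, open markers at the foot are libraries with 0 counts and the dashed line is the median expressed protein-coding gene. hp2 and RR9 stand apart at the top in all 4 libraries, and the breakdown genes all lie under the dashed line.

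The receptor genes were read at 3 different levels. HK1 (GeneID 541634) stood at 22.5, 19.0, 18.7 and 21.1 CPM in replicates 1 to 4, which is 1.39 times the median gene and did not pass the test (log2 ratio 0.47 ± 0.08 SE, edgeR adjusted p = 1). The receptor hk2 stood at 8.39 ± 1.32 CPM (n = 4) and did not pass either. hk3, whose synonyms include HK3a, had 2.85, 1.31, 2.32 and 2.64 CPM and lay below the median gene, 6.26-fold lower (log2 ratio -2.65 ± 0.16 SE, edgeR adjusted p = 2.49e-07). The ranges of the 3 genes over the libraries did not overlap. Of the reads of the 3 receptor genes matched by the rule, HK1 took 65.7 ± 3.20%, and between 63.1% and 70.2% in single libraries. In replicate 2 hk3 rested on 12 counts, its lowest level.

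One phosphotransfer gene took most of the reads of the 3 such genes matched by the rule. hp2 (GeneID 541625) had on average the most reads of any cytokinin gene, with 127, 139, 143 and 126 CPM in replicates 1 to 4. It lay 9.13-fold above the median gene (log2 ratio 3.19 ± 0.08 SE, edgeR adjusted p = 1.08e-13). Its 4 values lay close together, with a coefficient of variation (CV, the SD as a percentage of the mean) of 6.50%. HP1 had 25.3, 28.0, 30.6 and 21.7 CPM and HP3 had 6.86, 6.11, 7.24 and 5.51 CPM, and neither passed the test (log2 ratios 0.85 ± 0.10 and -1.18 ± 0.12 SE, edgeR adjusted p = 1 and 0.241). Within a library hp2 had 4.68 to 5.78 times the reads of HP1 and 18.5 to 22.8 times those of HP3. Thus hp2 took 80.3 ± 1.31% of the reads of these 3 genes, and phosphotransfer genes under other names were not counted.

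Among the type-B regulators matched by the rule, at the DNA-binding end of the pathway, RR9 (GeneID 541638) led. It stood at 116, 106, 121 and 127 CPM and lay 8.01-fold above the median gene (log2 ratio 3.00 ± 0.08 SE, edgeR adjusted p = 1.58e-13). RR10 stood at 29.8, 22.4, 30.9 and 31.1 CPM and RR8 at 28.4, 23.4, 23.3 and 27.5 CPM. Neither passed, at log2 ratios of 0.96 ± 0.08 and 0.81 ± 0.08 (SE, edgeR adjusted p = 1 for each). RR9 had 3.88 to 4.76 times the reads of RR10 and 4.07 to 5.20 times those of RR8, while RR10 and RR8 overlapped, with a ratio of 0.953 to 1.33 between them. Of the reads of the 3 type-B genes matched by the rule, RR9 took 68.5 ± 1.45%.

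hp2 and RR9 had similar reads. RR9 over hp2 ranged from 0.769 to 1.01 across libraries, with hp2 higher in 3 of 4. Together the pair held 50.6 ± 1.12% of the reads of all 29 cytokinin genes. For the ratio per unit length to come within 2-fold of the median gene, the transcript of hp2 would have to be over 4.57 times as long as that of the median gene, and that of RR9 over 4.01 times.

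Of the type-A regulators matched by the rule, RR4, RR6 and RR7 were read within 2-fold of the median gene. RR5 was read at 2.28 times the median gene and RR3 hardly at all. The response regulator crr2, outside the rule by its spelling and not classed here, lay 5.64-fold above the median gene. RR5 had 29.3, 29.0, 36.1 and 39.2 CPM, a log2 ratio of 1.19 ± 0.08 (SE), and missed the threshold with an edgeR adjusted p of 0.0686. It passed without replicate 1 (adjusted p = 0.0340), without replicate 2 (0.0204), with limma (0.0465), without the expression filter (2.02e-16, log2 ratio 2.05) and without the 2-fold bound (6.39e-10). It did not pass without replicate 3 or 4 (adjusted p = 0.309 and 0.223), with TMM scaling (0.0699), DESeq2 (0.114) or a filter at 1 CPM (0.284). RR5 is also the 1 cytokinin gene with a fractional deposited value, 265.5 in replicate 2. RR7 stood at 22.5 ± 2.25 CPM and RR6 at 15.1 ± 2.38 CPM, and RR4 was the lowest expressed type-A gene with 13.4, 11.8, 14.7 and 16.7 CPM. None of these 3 passed, with log2 ratios of 0.62, 0.05 and -0.05.

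RR3 (GeneID 541629), known as abph1, is the regulator whose loss changes leaf arrangement at the maize shoot apex. In the root tip it had 1, 0, 0 and 1 counts, a level of 0.0353 CPM on average. RR11, also named crr1 and not classed here, stood at 8.30 ± 1.32 CPM and did not pass (log2 ratio -0.83 ± 0.12 SE). Among the regulators RR3 was the 1 gene that did not pass the expression filter.

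**Figure D2:**
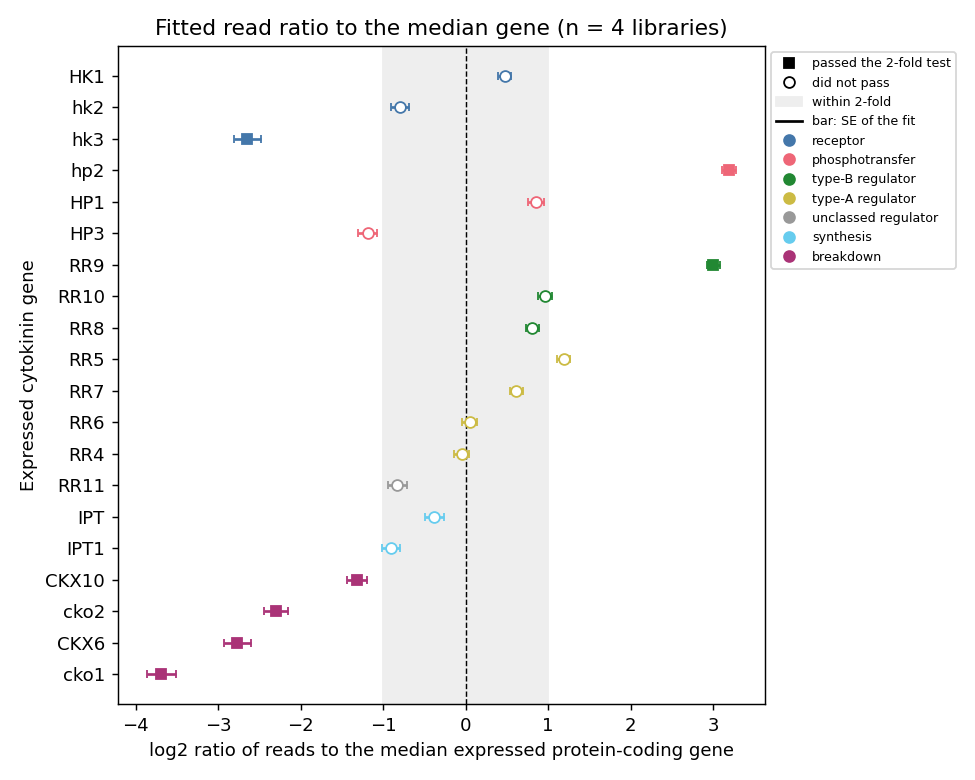
Fitted log2 ratio of reads to the median expressed protein-coding gene (horizontal axis) for the 20 expressed cytokinin genes (vertical axis, by role), with bars for the SE of the fit over 4 libraries. Filled squares passed the test against a 2-fold difference (grey band) and open circles did not: hp2 and RR9 lie to the right, and hk3 and the 4 expressed breakdown genes to the left.

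Of the 4 isopentenyl transferase genes matched by the rule, 2 passed the expression filter. Their place in cytokinin synthesis follows from the gene names alone, and which kind of isopentenyl transferase each encodes was not checked. The gene named IPT (GeneID 100174970) had 12.0, 13.6, 10.5 and 9.10 CPM and IPT1 (GeneID 100158231, which also carries the synonym IPT) had 6.99, 8.94, 6.95 and 8.66 CPM. Neither passed the test, at log2 ratios of -0.38 ± 0.11 and -0.90 ± 0.11 (SE, edgeR adjusted p = 1 for each). The reads of IPT exceeded those of IPT1 in 4 of 4 libraries, by 1.05 to 1.72 times, although their ranges overlapped between libraries. IPT5 had 0, 0, 1 and 2 counts. IPT4 had 0 counts in every library, which allows up to 0.0584 CPM (counting error only).

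The 4 expressed breakdown genes all lay below the median gene. CKX10, which encodes a cytosolic cytokinin oxidase where most of the family is secreted, had 94, 62, 69 and 75 counts in replicates 1 to 4, a level of 5.91 ± 0.806 CPM. It lay 2.49-fold below (log2 ratio -1.32 ± 0.12 SE, edgeR adjusted p = 0.0388). It was no longer called when replicate 1, 3 or 4 was left out (adjusted p = 0.0719, 0.241 and 0.168), with DESeq2 (0.0783), with genes of whole values alone (0.0730) and without the expression filter (1).

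cko2 had 3.19, 1.85, 3.11 and 3.52 CPM, 4.93-fold below the median gene (log2 ratio -2.30 ± 0.15 SE, edgeR adjusted p = 1.29e-06). CKX6 had 2.17, 1.20, 2.53 and 2.50 CPM, 6.80-fold below (log2 ratio -2.77 ± 0.17 SE, edgeR adjusted p = 1.20e-07). Both were lowest in replicate 2, the library with the smallest total. The gene cko1, a secreted cytokinin oxidase first described in maize kernels, was the lowest expressed cytokinin gene.

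cko1 had 1.09, 1.20, 1.09 and 1.17 CPM, from 16, 11, 15 and 16 counts. It lay 12.9-fold below the median gene (log2 ratio -3.69 ± 0.17 SE, edgeR adjusted p = 6.10e-10). Its CV of 5.21% was smaller than the 26.6% that counting error alone gives at this depth, so the closeness of its 4 values carries no information on biological spread. To come within 2-fold per unit length, its transcript would have to be over 6.45 times shorter than that of the median gene. The same factor was 3.13 for hk3, 3.40 for CKX6, 2.46 for cko2 and 1.25 for CKX10.

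The other 6 breakdown genes did not pass the expression filter. CKX4 had 7, 19, 10 and 7 counts, CKX4b had 15, 3, 5 and 10, and cko3 had 7, 4, 2 and 4. CKX5 and CKX12 each had 10 counts over the 4 libraries, and CKX8 had 1. In the gene order of the reference table CKX12 and RR3 are near neighbours with 2 genes between them. Neither passed the filter, which 57.6% of all protein-coding genes passed. RR4 and cko3 lie further apart, with 37 genes between them, and there RR4 passed and cko3 did not.

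In order of reads, 16 of the 19 pairs of neighbouring expressed cytokinin genes overlapped in their 4 values. The 3 gaps lay between RR9 and RR5, between HK1 and RR6, and between CKX10 and cko2. The first gap set hp2 and RR9 apart from a run from RR5 to HK1 with means between 33.4 and 20.3 CPM. The response regulator crr2, outside the rule, stood within this gap in all 4 libraries, at 67.3 to 95.5 CPM. A further run reached from RR6 at 15.1 CPM to CKX10 at 5.91 CPM, and the lowest run held cko2, hk3, CKX6 and cko1.

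Summed over each role, reads of the phosphotransfer genes came to 166 ± 12.8 CPM and those of the type-B regulators to 172 ± 14.0 CPM. The type-A regulators summed to 85.2 ± 11.5 CPM and the receptors to 31.0 ± 3.54 CPM (n = 4 each). These sums cover only genes matched by the rule. The response regulator crr2, outside the rule and not classed here, stood at 82.3 ± 12.4 CPM and is in no sum, so the regulator sums are not those of whole classes. Synthesis genes summed to 19.3 ± 2.30 CPM and the 10 breakdown genes to 14.3 ± 0.782 CPM. The 4 breakdown values lay between 13.5 and 15.2 CPM and all 4 synthesis values between 17.5 and 22.6 CPM, without overlap. Breakdown over synthesis reads thus ranged from 0.618 to 0.824. Both sums are of reads, not scaled by length, of genes matched by name, so the ratio gives no balance of synthesis and breakdown. All 29 genes together took 496 ± 20.2 CPM.

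**Figure D3:**
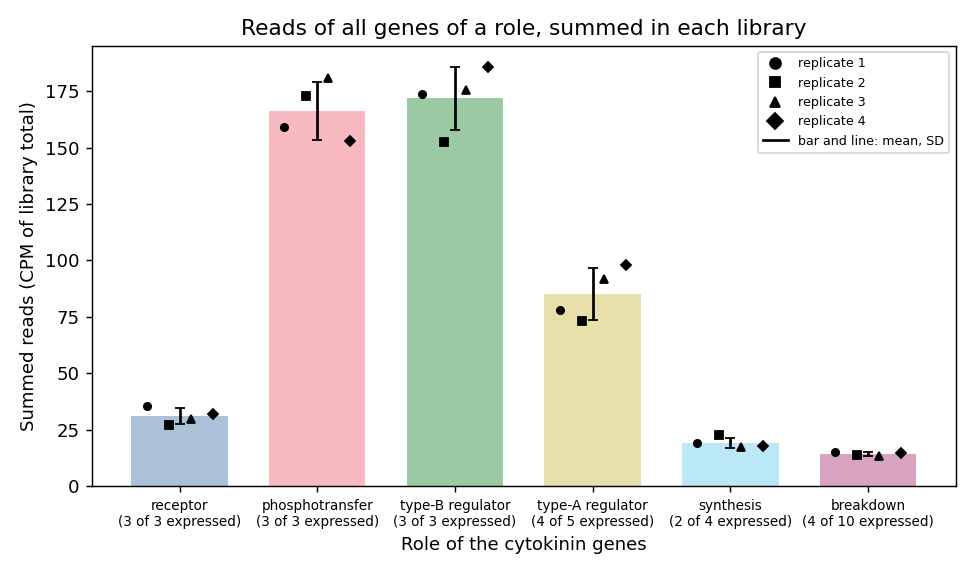
Reads of all genes of a role matched by the rule, summed in each library (vertical axis, CPM of the library total) for 6 roles along the horizontal axis. Bars are means, lines the SD and markers the 4 replicates, and RR11 and crr2 are not included. Phosphotransfer and type-B regulator genes overlap near 170 CPM, and synthesis and breakdown genes lie lowest without overlapping.

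The 4 expressed type-A genes matched by the rule departed from their own means in the same directions. Other response regulators shared this pattern only in part. All 4 of these type-A genes were below their mean log2 CPM in replicates 1 and 2 and above it in replicates 3 and 4, as were 14.8% of all expressed genes. The type-B gene RR9 had the same signs. The unclassed RR11 ran another way, with departures of 0.01, 0.27, 0.02 and -0.30 log2 units in replicates 1 to 4. So did the response regulator crr2, left out of the rule by its spelling and not classed here. It was highest in replicate 2 at 95.5 CPM and lowest in replicate 4 at 67.3 CPM. The mean departure of the type-A genes was -0.10, -0.22, 0.12 and 0.20 log2 units in replicates 1 to 4. RR6 varied most, with its highest library 1.43 times its lowest, and RR7 least, at 1.24 times. Expressed relative to the median gene of each library, RR4, RR5, RR6 and RR7 were again highest in replicate 3 or 4 and lowest in replicate 1 or 2.

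The 3 phosphotransfer genes showed another order. By CPM hp2, HP1 and HP3 were each highest in replicate 3 and lowest in replicate 4. Relative to the median gene each was again lowest in replicate 4. HP1 and HP3 were again highest in replicate 3, but hp2 was highest in replicate 2, at 10 times the median gene against 9.88 times in replicate 3. The highest library exceeded the lowest by 1.14 times for hp2, 1.41 times for HP1 and 1.31 times for HP3. The receptors hk2 and hk3 were lowest in replicate 2, and all 3 receptors were highest in replicate 1. Of the 20 expressed cytokinin genes 10 were lowest in replicate 2, which was the lowest library for 40.4% of all expressed genes, and 0 in replicate 1, the lowest for 21.4%. These counts are of CPM: relative to the median gene, 8 were lowest in replicate 2 and 4 in replicate 1. Library totals and root cap reads also differed between replicates, and their part in these departures was not tested. With 4 libraries no correlation between genes was computed.

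**Figure D4:**
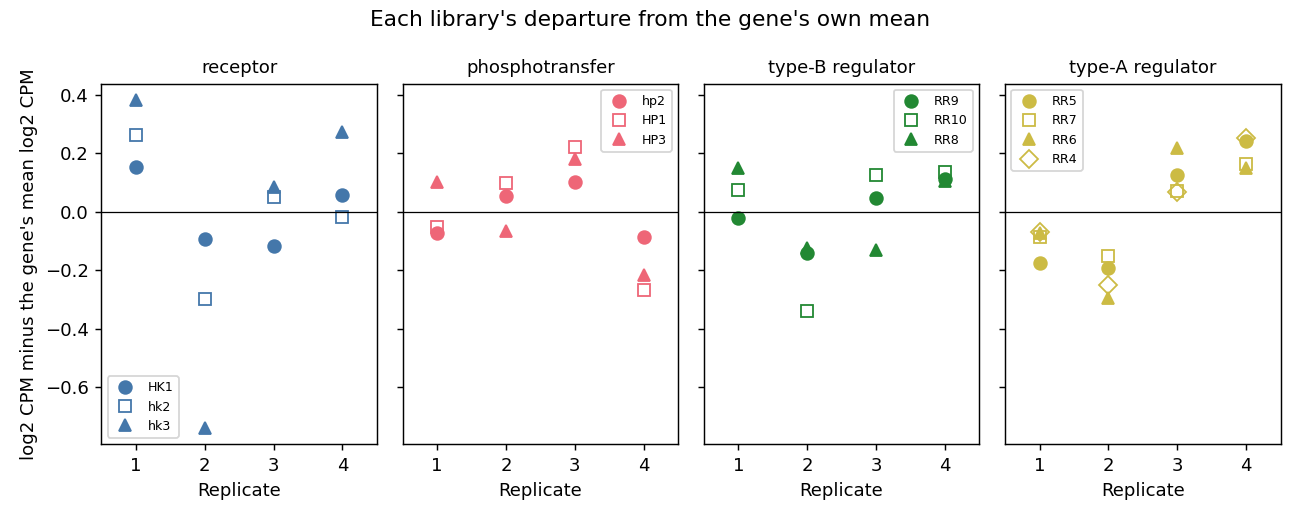
Departure of each library from the gene's own mean (vertical axis, log2 CPM minus the mean log2 CPM of the 4 libraries) against replicate number. A panel each shows the expressed receptor, phosphotransfer, type-B and type-A genes matched by the rule, with RR11 and crr2 not included. The type-A genes shown are all below 0 in replicates 1 and 2 and above 0 in replicates 3 and 4. The phosphotransfer genes are all below 0 in replicate 4.

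The spread between libraries was close to that of all expressed genes. The median CV of the 20 expressed cytokinin genes was 14.5%, beside 13.3% for all expressed genes. Apart from cko1, the smallest values were those of hp2 at 6.50% and RR9 at 7.41%, and the largest were those of hk3 at 30.0% and CKX6 at 29.6%, where counting error alone gives 18.8% and 19.6%. edgeR's gene-wise dispersion was under the trend for the same level in 16 of the 20, against 67.2% of all expressed genes.

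**Figure D5:**
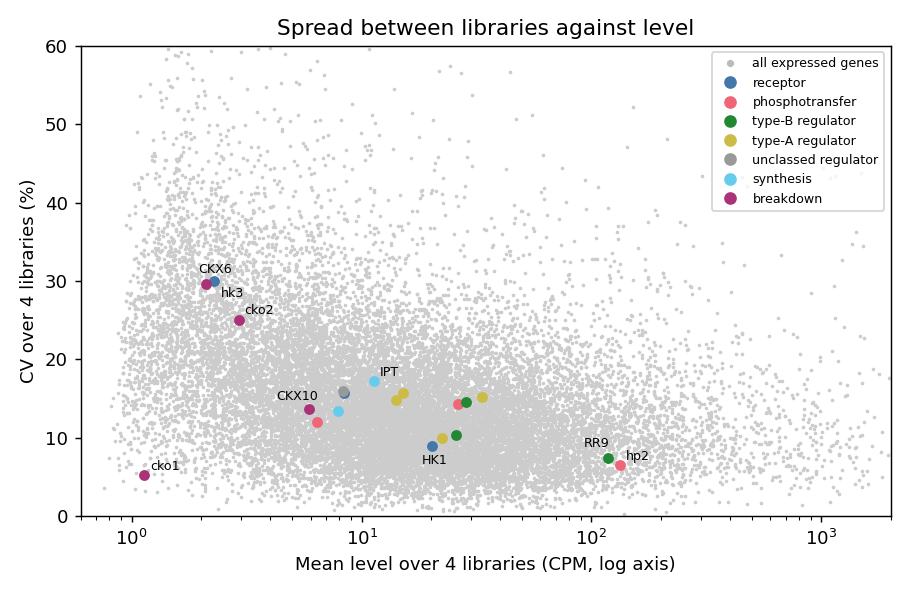
CV over the 4 libraries (vertical axis, %) against mean level (horizontal axis, CPM, log scale) for all 21046 expressed genes in grey and the 20 expressed cytokinin genes in colour by role; 50 grey genes lie outside the axes. hp2 and RR9 have the smallest CV of the cytokinin genes with over 100 counts, and hk3, CKX6 and cko2 the largest.

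The rest of the pathway was looked up by symbol in a list of 15 genes. Genes of the names LOG, CYP735A and CRF and the transporter names in the list were not matched. Of the 15 genes 11 were expressed, beside 57.6% of all protein-coding genes. Of these 11, 1 lay above and 5 below, beside 25.6% and 27.0% of all genes tested, and 5 did neither. The gene above was crr2 (GeneID 541624), a response regulator left out of the rule by its spelling and not classed here. It stood at 77.5, 95.5, 88.8 and 67.3 CPM in replicates 1 to 4, highest in replicate 2 and lowest in replicate 4 (log2 ratio 2.50 ± 0.10 SE, edgeR adjusted p = 3.91e-10). PRR59, a pseudo-response regulator by name, stood at 11.0 ± 3.13 CPM and did not pass.

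Both cis-zeatin O-glucosyltransferase genes, whose enzymes store cytokinin as a conjugate, were expressed without passing: CISZOG2 at 31.2 ± 2.36 CPM and ciszog1 at 11.7 ± 2.41 CPM. Among 11 names of knotted-type homeobox genes, which promote cytokinin synthesis in shoot meristems of Arabidopsis and rice, 7 were expressed and 5 of these lay below, beside 57.6% and 27.0% of the same backgrounds. lg4a and lg4b stood at 11.8 ± 2.35 and 10.5 ± 1.39 CPM and did not pass. The genes below included knox6, knox7 and lg3, between 4.63 and 3.60 CPM, and rs2 at 2.22 CPM. By its known role rs2 is a MYB repressor of such genes and no homeobox gene, but it matched by name and is included in the counts of 11, 7 and 5. kn1 had 15 counts over the 4 libraries and did not pass the filter.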

How the data were processed

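The authors' deposited values are estimated counts per gene and library, without normalization, listed by NCBI GeneID. Per the submitters' processing notes reads were handled with HTSeq, UMI-tools, SAMtools, deepTools, STAR 2.7.10b and Trimmomatic (0.36 and 0.39). Per the labels' protocols the libraries are strand-specific and carry molecular tags. The genome build, annotation, strand setting and whether tags were collapsed are not given in the sources at hand, so intervals and limits cover counting error only. Reads shared between near-identical copies or overlapping antisense genes make single genes uncertain.

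Values were rounded to whole numbers (0.5 upward); 3062 of 48174 genes had a fraction (tolerance 1e-06). Names came from the RefSeq table of Zm-B73-REFERENCE-NAM-5.0, in which 48127 GeneIDs were found and 47 were not. That table holds no transcript lengths or sequences, so the planned scaling by coding length, the protein motif classes and promoter letters were not used; type-A and type-B follow published maize names. Another table has 5 value columns that match no sample, and none was used.

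edgeR 4.0.16 (filterByExpr at its defaults, minimum count 10 and minimum total 15; intercept-only quasi-likelihood fit with the library's median expressed protein-coding gene as offset) gave each ratio. The F statistic compared the deviance of the fit with that at the closer 2-fold limit. It was also run on counts simulated from the fitted model, which cannot show how well that model fits these data. DESeq2 1.42.0, limma 3.58.1, TMM scaling, other filters and each replicate left out were alternatives. Named in full are members above or below and the highest and lowest expressed of each role. Members and lists were chosen with earlier results of these data known. One gene of the list of other pathway genes enters its counts and is not reported here by name. No label says that the replicates came from separate plantings, so p-values measure the spread between these samples.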

Additional observations from a re-analysis of the deposited data

Results flagged for a closer look

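In 3 of 39 sets of 4 values, 1 library stood apart from the other 3 by Dixon's ratio (the gap to the nearest value over the whole range, above its critical value for 4 values). The sets were 29 single genes, HPL included, and 10 sums over a role or over several roles. Chance flags about 1 in 20 independent sets. These sets are not independent, because the sums repeat the values of single genes and RR11 alone forms 1 of the sums. The number flagged therefore cannot be read against that rate.

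RR10 had a ratio of 0.849. Replicate 2 stood at 22.4 CPM (exact 95% Poisson interval 19.4 to 25.6 CPM, counting error only), below the 29.8, 30.9 and 31.1 CPM of the other libraries, whose intervals began at 27.1, 28.0 and 28.2 CPM. RR9 was also lowest in replicate 2, as were 40.4% of all expressed genes, whereas RR8 was lowest in replicate 3.

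CKX4 had a ratio of 0.844. Replicate 2 stood at 2.07 CPM from 19 counts (interval 1.25 to 3.24 CPM), above 0.475, 0.724 and 0.514 CPM in replicates 1, 3 and 4, where the interval of replicate 3 reached 1.33 CPM. Of the 4 expressed genes of the same family, CKX10 and cko1 were highest in that library and CKX6 and cko2 lowest.

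CKX8 had a ratio of 1 because its single count fell in replicate 2.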

How the results depend on the processing

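Under 11 alternatives 204 of 230 recomputed ratios kept their side of the threshold, 6 lost a call (all of CKX10), 20 gained one and 0 reversed. Without the 2-fold bound 9312 of 21046 genes lay above and 9917 below, with 8 and 10 of the 20 cytokinin genes. With every gene that had a count, the median gene stood at 8.03 CPM. There 8745 of 30723 genes lay above and 12774 below, with 8 and 12 of 28 cytokinin genes. Leaving out 1 replicate gave 2 to 3 cytokinin genes above and 4 to 5 below, of 20 expressed in each case. Beside these, 5202 to 5464 of all genes lay above and 5439 to 5829 below, of 21099 to 21360 tested. hp2, RR9, hk3, cko2, CKX6 and cko1 kept their calls whichever replicate was left out. Scaled to the protein-coding total, breakdown genes summed to 15.4 CPM, more than 1 SD higher; no other sum moved as far. Scaling by coding length was not run. No paired analysis was possible because all samples are of 1 group.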
